A study of Arabidopsis thaliana with 34 samples.

Results

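In the inbred Arabidopsis thaliana accession C24, 31 genes had far less transcript than in the accessions Ler and Col, and in most of them close to none. They were chosen by their values: from the 18 libraries lettered A and B, genes were kept whose mean in Ler and in Col was at least 1 CPM (counts scaled to the library total) and at least 8 times the C24 mean, and AT4G08870 was left out by the rule. The 31 genes came from 33321 loci in the deposited table, of which 22805 reached 1 CPM in both Ler and Col. Under the same rule 54 genes were near silent in Ler alone and 15 in Col alone.

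The study measured mRNA in the aerial tissue of seedlings 15 days after sowing, with 5 to 15 seedlings pooled for a library. Among 9 genotypes were 3 inbred accessions, C24, Ler and Col, and 6 F1 hybrids made by crossing each pair both ways: C24xLer with LerxC24 (the C24/Ler family), C24xCol with ColxC24 (C24/Col), and ColxLer with LerxCol (Col/Ler). No mutant or treatment entered these groups, and which parent in a cross's name was the mother is not stated. C24 and Ler had 7 libraries each, C24xLer and LerxC24 had 5 each, and the other 5 genotypes had 2 each, 34 in all. Nothing beyond the pools says that replicates came from separate sowings, so p-values measure the spread between these pools. In whole aerial tissue, fewer cells that express a gene and less RNA per cell cannot be told apart.

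Natural accessions of a plant species differ in which genes they transcribe. A gene can be missing or broken in the genome of one accession, can carry a different promoter, or can be held silent by DNA methylation and small RNAs that also silence transposons. In a hybrid, an active and an inactive allele share one nucleus, and a level midway between the parents is what equal, unaltered use of the alleles gives.

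The 30 libraries not lettered C held 36324848 to 88686247 counts, and the 4 lettered C held 13198638 to 20435372. The letter C libraries had 11393 to 11692 loci at 0 counts, and 8 of the 31 genes were at 0 in all 4 of them, so these libraries entered no main result. Libraries Ler D and Ler E stood apart: the 54 genes near silent in Ler alone had a median of 47.9% and 33.3% of the C24 and Col level there, against 3.81% to 4.35% in the other 4 Ler libraries and 35.7% to 66.1% in the C24/Ler hybrids. These values go against the label Ler, and whether the 2 libraries hold RNA of Ler alone was not tested. They entered the tests as labelled, and the counts of the 31 genes called in those tests are given without them too. Counts of genes whose libraries do not overlap, a list of 25 genes compared below and most single-gene values are given with them only. Among the C24/Ler hybrids the lowest of those medians, 35.7%, was that of LerxC24 B, and the others were 47.6% or higher. For LerxC24, 2 columns are headed D and E, letters that no LerxC24 sample title has, and they are called U1 and U2 here. Summed leaf markers reached 17222 to 39760 CPM, root markers 7.82 to 13.7 CPM and floral organ markers 6.90 to 27.4 CPM in the libraries not lettered C, and no marker was at 0 in every library.

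The name "near silent" fitted most of the genes but not all. The C24 mean was under 1 CPM in 25 of the 31 and at least 1 CPM in 6. AT2G05110 had 16.1 and 16.2 CPM in C24 A and B, and AT3G62530, which encodes a protein with ARM repeats, a fold used to bind other proteins, had 13.7 and 13.6 CPM. These 2 genes were low in C24 relative to the other accessions without being silent there. The other 4 were AT2G43535, AT5G26622, DRP4D and AT1G60505, with C24 means of 2.11, 1.67, 1.30 and 1.20 CPM. Per kilobase of annotated exon, the median level over the 31 genes was 0.334 CPM in C24, 7.00 in Ler and 7.87 in Col. The smaller of the Ler and Col means was at least 16 times the C24 mean for 18 genes and at least 32 times for 10. Just inside the limit lay AT5G26622 at 8.30-fold and AT2G26215 at 8.58-fold, and just outside it lay AT5G22608 at 7.88-fold and AT2G24692 at 7.65-fold. AT5G30123 had 0 counts in both C24 libraries and at least 72.9-fold more in Ler and Col, taking 3 counts over the group as the floor. It was named because of those values.

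**Figure D1:**
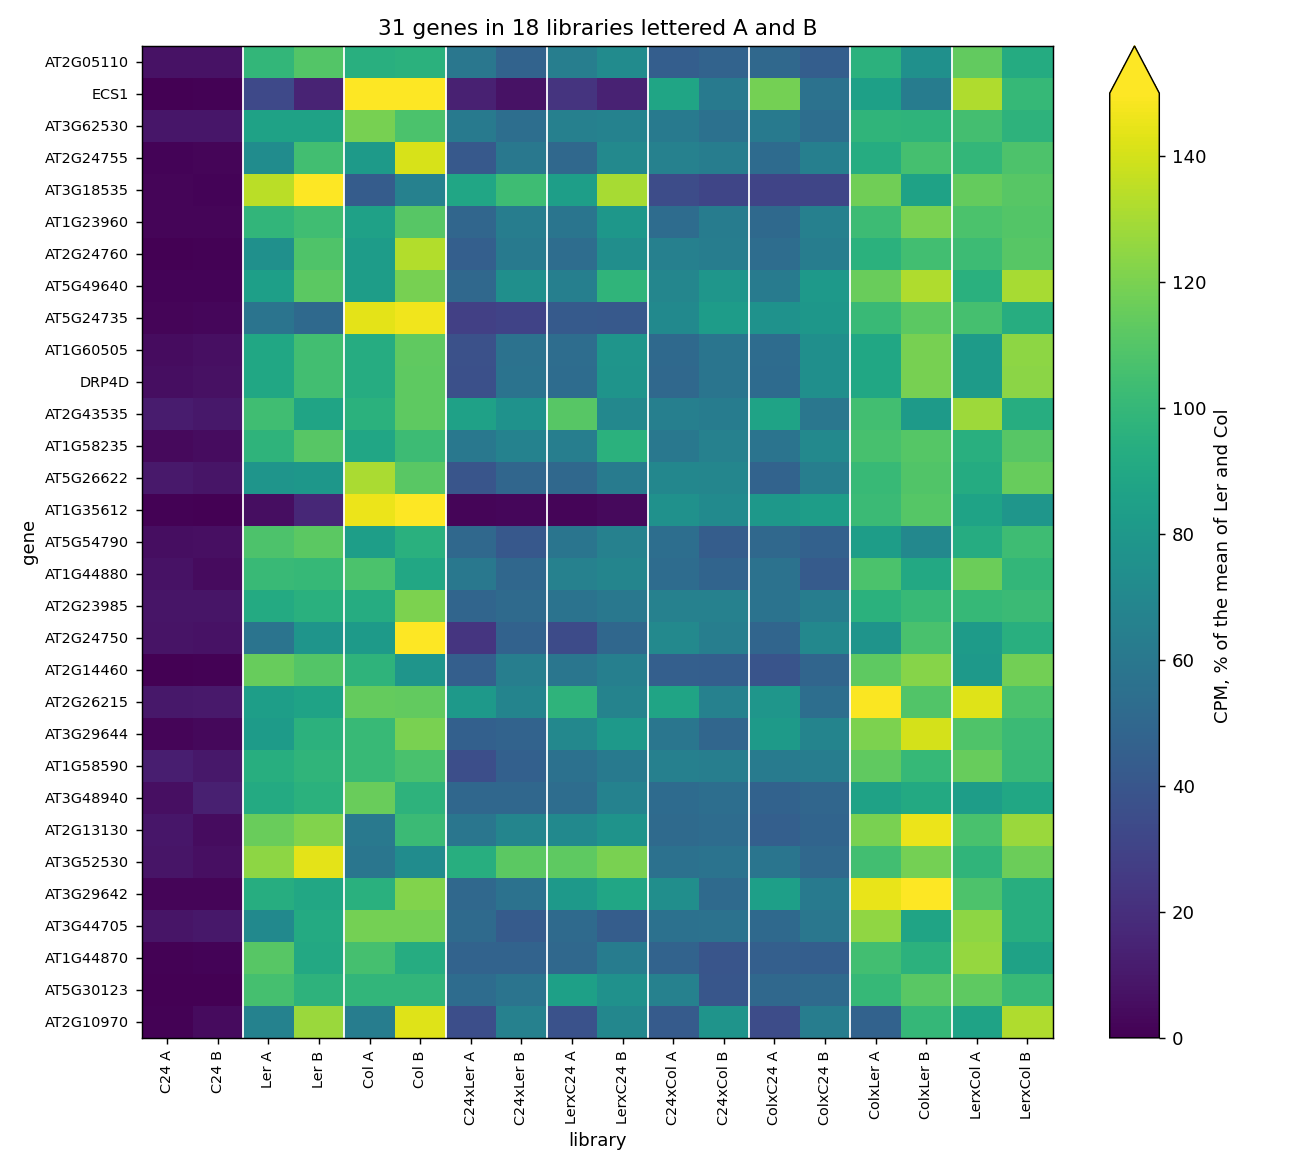
Level of each of the 31 genes (rows) in the 18 libraries lettered A and B (columns), as a percentage of the gene's mean over the 4 Ler and Col libraries. Colours stop at 150%. C24 is dark throughout because the rule chose the genes for that, while the 8 hybrid libraries with a C24 parent have intermediate colours for most genes, and ECS1, AT1G35612 and AT5G24735 stay darker in the C24/Ler hybrids than in the C24/Col hybrids.

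Annotated gene types differed from those of the genome at large. By the TAIR10.1 annotation, 14 of the 31 were protein coding, 12 were pseudogenes and 5 were non-coding RNAs. Among all genes tested the shares were 87.3%, 8.86% and 1.30%. The genes lay on chromosome 1 (9 genes), chromosome 2 (10), chromosome 3 (7) and chromosome 5 (5), and 0 lay on chromosome 4. Of all genes tested, 25.8%, 15.7%, 19.4%, 22.5% and 15% lay on these chromosomes in that order. AT4G08870, left out by the rule, has a chromosome 4 locus name. Several sat together: AT1G60505 and DRP4D overlap each other, AT2G24755 overlaps AT2G24750 and AT2G24760, AT3G29642 overlaps AT3G29644, and AT1G44870 and AT1G44880 are 2 genes apart. In all, 12 of the 31 overlap another annotated gene, against 26.6% of all genes tested, and 7 overlap another gene of the 31. The use of strand in counting is not stated, so reads of overlapping genes cannot be told apart and these 12 values are uncertain. AT1G60505 and DRP4D show this: their levels in Ler A were 19.5 and 19.3 CPM, and in Col B 24.6 and 24.4 CPM.

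The protein-coding genes had scattered functions. ECS1 encodes a cell wall-associated protein. AT2G43535 encodes a scorpion toxin-like knottin, a small peptide held together by disulfide bridges, and AT2G10970 an inhibitor of invertase or pectin methylesterase, enzymes of sugar cleavage and of cell wall pectin. AT3G18535 is annotated as a tubulin-tyrosine ligase, an enzyme class known from animals for adding tyrosine to tubulin. AT3G52530 encodes a protein kinase, AT3G48940 a remorin, a plant-specific protein of plasma membrane domains, AT5G54790 a protein like small phosphatases of the RNA polymerase tail, and AT5G26622 a protein related to beta-galactosidases. AT1G23960 carries the domain of unknown function DUF626. Among the pseudogenes, DRP4D derives from a dynamin-related protein, a class of GTPases that pinch membranes, AT2G24750 from glutamate receptor 2.2, an ion channel family, and AT2G13130 from an F-box protein, the part of a ubiquitin ligase that picks the substrate. Of the 31, 16 had no annotated product or one given as a hypothetical, unknown, uncharacterized or transmembrane protein. This share of 51.6%, against 15.8% of all genes tested, includes pseudogenes with a named parent gene, such as DRP4D.

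Overlapping partners outside the 31 did not all follow them. AT2G23985 was at 0.770 CPM in C24, 8.57 in Ler and 9.77 in Col, while CNGC6, a cyclic nucleotide-gated channel gene that overlaps it, was at 36.2, 38.2 and 40.9 CPM. AT2G26215 was at 0.543, 4.66 and 6.24 CPM, while its partner AT2G26220 was at 1.03, 1.03 and 2.44 CPM. AT3G18535 was at 0.741, 55.7 and 21.0 CPM, and its partner AT3G18530 was also lower in C24, at 1.52, 10.2 and 6.16 CPM.

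Ler and Col were not always alike. Their means lay within 2-fold of each other for 26 of the 31 genes. ECS1 was at 50.6 and 22.6 CPM in Ler A and B but at 247.5 and 294.8 CPM in Col A and B, against 0.813 and 0.930 CPM in C24. AT1G35612 was at 0.876 and 2.70 CPM in Ler and 23.97 and 38.2 CPM in Col, against 0.120 and 0.0503 CPM in C24. In letters A and B the 3 accessions formed 3 separate levels for both genes, where the rule fixed the gap to C24. In the other libraries AT1G35612 overlapped between C24 and Ler. ECS1 reached 245.7 CPM in Ler D, below its 262.8 and 312.2 CPM in Col A and B. These ECS1 values come from a scaling over the 30 libraries not lettered C. AT5G24735, a non-coding RNA, was at 13.1 and 11.6 CPM in Ler and 32.5 and 33.1 CPM in Col. In the opposite direction, AT3G18535 had 51.6 and 59.8 CPM in Ler against 16.7 and 25.4 CPM in Col, and AT3G52530 had 2.92 and 3.37 CPM against 1.39 and 1.71 CPM. The order Ler over Col or Col over Ler therefore differed from gene to gene.

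The libraries that the rule did not use gave the same ordering of C24 and Ler. Among the 12 libraries lettered neither A, B nor C, 30 of the 31 genes were lower in C24 than in Ler and 0 were higher, by edgeR's quasi-likelihood test at a Benjamini-Hochberg adjusted p below 0.05 over 29851 genes. Over all those genes 4.62% were lower and 3.82% were higher. The median log2 difference of the 31 genes was -4.11, against -0.006 over all genes. Every one of the 4 C24 libraries lay below every one of the 4 Ler libraries for 30 of the 31 genes, an arrangement seen in 7.13% of all genes tested. Without Ler D and Ler E, 29 of the 31 were lower and the median was -4.24. With the letter C libraries added, 21 were lower.

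AT1G23960 was at 0.775, 0.894, 0.873 and 1.08 CPM in C24 D to G and at 44.4, 54.2, 51.9 and 54.99 CPM in Ler D to G. These 2 groups stood far apart with little spread in either (log2 difference -5.83 ± 0.14 SE, edgeR adjusted p 2.7e-09). AT2G24755, an lncRNA antisense to 2 of the other genes, was at 0.726, 0.720, 0.664 and 0.446 CPM in C24 and at 40.6, 39.4, 44.4 and 43.2 CPM in Ler (-6.01 ± 0.17, edgeR adjusted p 5.5e-09). AT2G14460, named because of its values, had 0, 0.0581, 0 and 0 CPM in C24 and 13.6, 9.64, 10.4 and 11.1 CPM in Ler. AT5G30123 again had 0 counts in every C24 library and 1.36, 1.17, 0.232 and 0.478 CPM in Ler, at least 72.2-fold more with 3 counts over the C24 group as the floor. The median of the 31 differences was -4.11 with this gene at its bound too.

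AT3G62530 kept its partial level. It had 14.4, 18.2, 15.8 and 12.03 CPM in C24 and 103.7, 89.97, 118.9 and 128.9 CPM in Ler (-2.87 ± 0.16, edgeR adjusted p 1.2e-06). The smallest differences were those of AT1G58590, a non-coding RNA (-1.64 ± 0.32), AT3G44705, a pseudogene (-2.05 ± 0.24), and AT2G26215, a pseudogene (-2.45 ± 0.20), all lower in C24.

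Some genes varied more among these libraries. AT2G05110 was at 8.33, 0.860, 2.26 and 1.06 CPM in C24 and at 78.5, 9.43, 30.3 and 22.9 CPM in Ler, compared with 220.7 and 244.3 CPM in Ler A and B. Its highest C24 library lay only just under its lowest Ler library, and its call (-3.48 ± 0.94, edgeR adjusted p 0.0438) was lost when C24 E, F or G, Ler D, F or G or either LerxC24 library was left out, with adjusted p of 0.063 to 0.121, and when Ler D and Ler E were left out together, with 0.064. ECS1 ranged from 0.418 to 1.77 CPM in C24 and from 18.7 to 266.0 CPM in Ler, with the 2 highest values in Ler D and Ler E (-6.95 ± 0.87, edgeR adjusted p 6.0e-04). AT1G35612 was the 1 gene not called: C24 D to G had 0.0369, 0.0813, 0.114 and 0.0212 CPM and Ler D to G had 1.75, 0.275, 0.104 and 0 CPM. Its groups overlapped (-3.11 ± 1.07, edgeR adjusted p 0.107), and DESeq2 called it, with an adjusted p of 0.0256. What a shared letter stands for, such as a sowing or a harvest, is not stated in the labels.

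**Figure D2:**
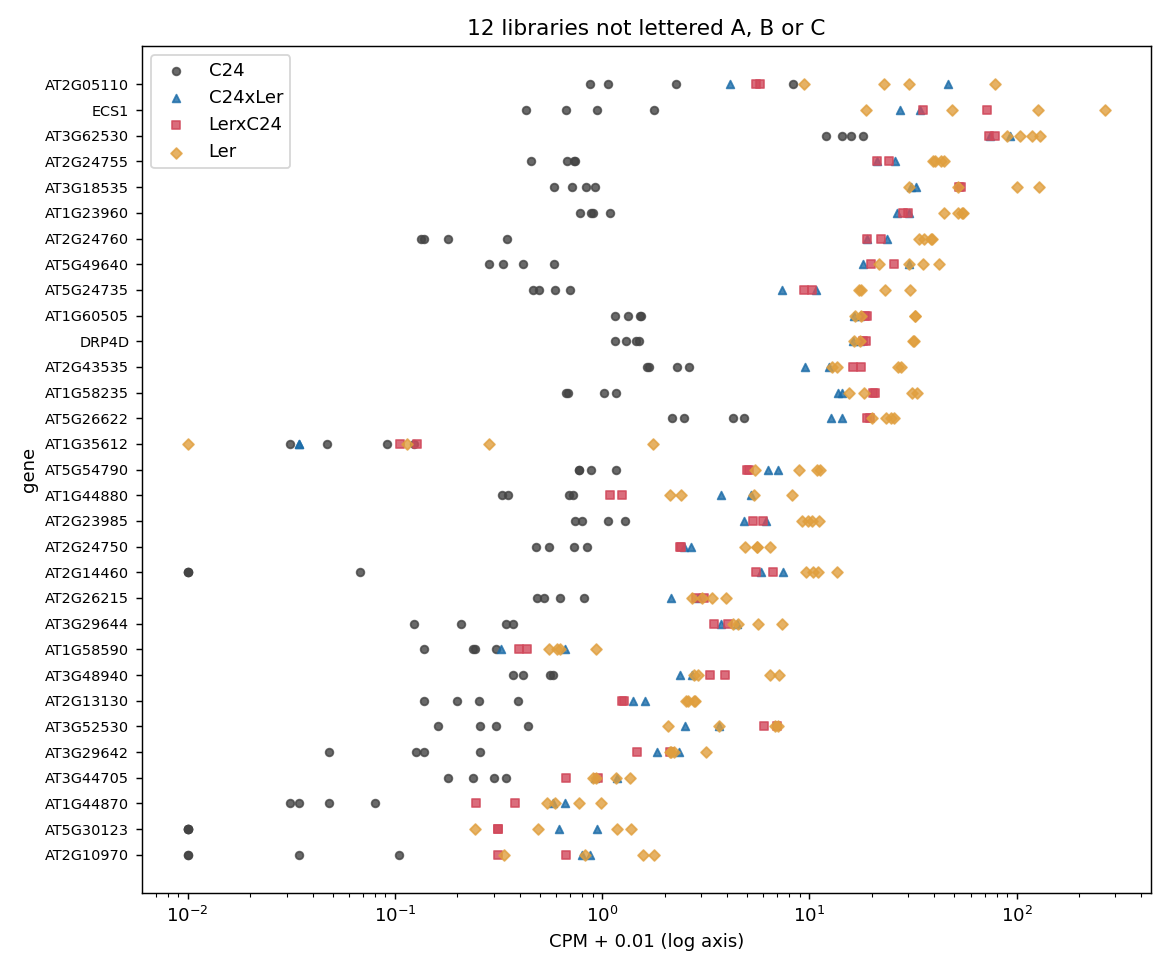
CPM plus 0.01, on a log axis, of the 31 genes in the 12 libraries that the rule did not use, 4 of C24, 4 of Ler and 2 each of C24xLer and LerxC24, 1 point per library. The C24 points lie left of all Ler points for every gene except AT1G35612, and for most genes the hybrid points lie nearer to the Ler than to the C24 points on this log scale.

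The level of each hybrid was set against the mean of its parents' CPM. In letters A and B the parents' values chose the genes, so these ratios are a description with no test. In the C24/Ler hybrids the median ratio was 1.15, with a range of 0.466 to 1.64. Between 0.8 and 1.25 lay 18 of the 31 genes, 12 lay above and 1 below, and over all genes tested 87.9% lay in that range. In the C24/Col hybrids the median was 1.08 (0.821 to 1.51), with 28 genes in the range and 3 above, against 86% of all genes. In the Col/Ler hybrids, whose parents both express these genes, the median was 1.04 (0.875 to 1.29), with 29 in the range and 2 above, against 88.5% of all genes. All 31 genes lay between the parents' means in both C24 families, where the parents differ at least 8-fold by the rule, against 53.4% of all genes in C24/Ler and 47.2% in C24/Col. In Col/Ler 14 of the 31 did, against 51.4%.

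The genes with the highest C24/Ler ratios were AT2G26215 (1.64), AT2G43535 (1.61) and AT3G52530 (1.55). AT3G52530, the kinase gene, had 2.20, 2.64, 2.64 and 2.81 CPM in C24xLer A and B and LerxC24 A and B. Those values lay close to its Ler values of 2.92 and 3.37 CPM and far from its C24 mean of 0.175 CPM. In the C24/Col hybrids it had 1.31, 1.34, 1.37 and 1.19 CPM, near the Col values of 1.39 and 1.71 CPM, and its ratio of 1.51 was the highest of the 31 in that family. AT5G49640 and AT1G58235, both uncharacterized, followed there with 1.41 and 1.27.

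At the other end, AT1G35612 had 0.358, 0.414, 0.320 and 0.651 CPM in the C24/Ler hybrids, a ratio of 0.466. The hybrids were below both Ler libraries (0.876 and 2.70 CPM) and above both C24 libraries. AT5G54790 and AT1G58590 came next at 0.933 each. In the C24/Col hybrids AT1G35612 had 12.5, 11.8, 13.1 and 13.7 CPM, a ratio of 0.821, and AT3G44705 and AT3G48940 had ratios of 0.875 and 0.877.

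**Figure D3:**
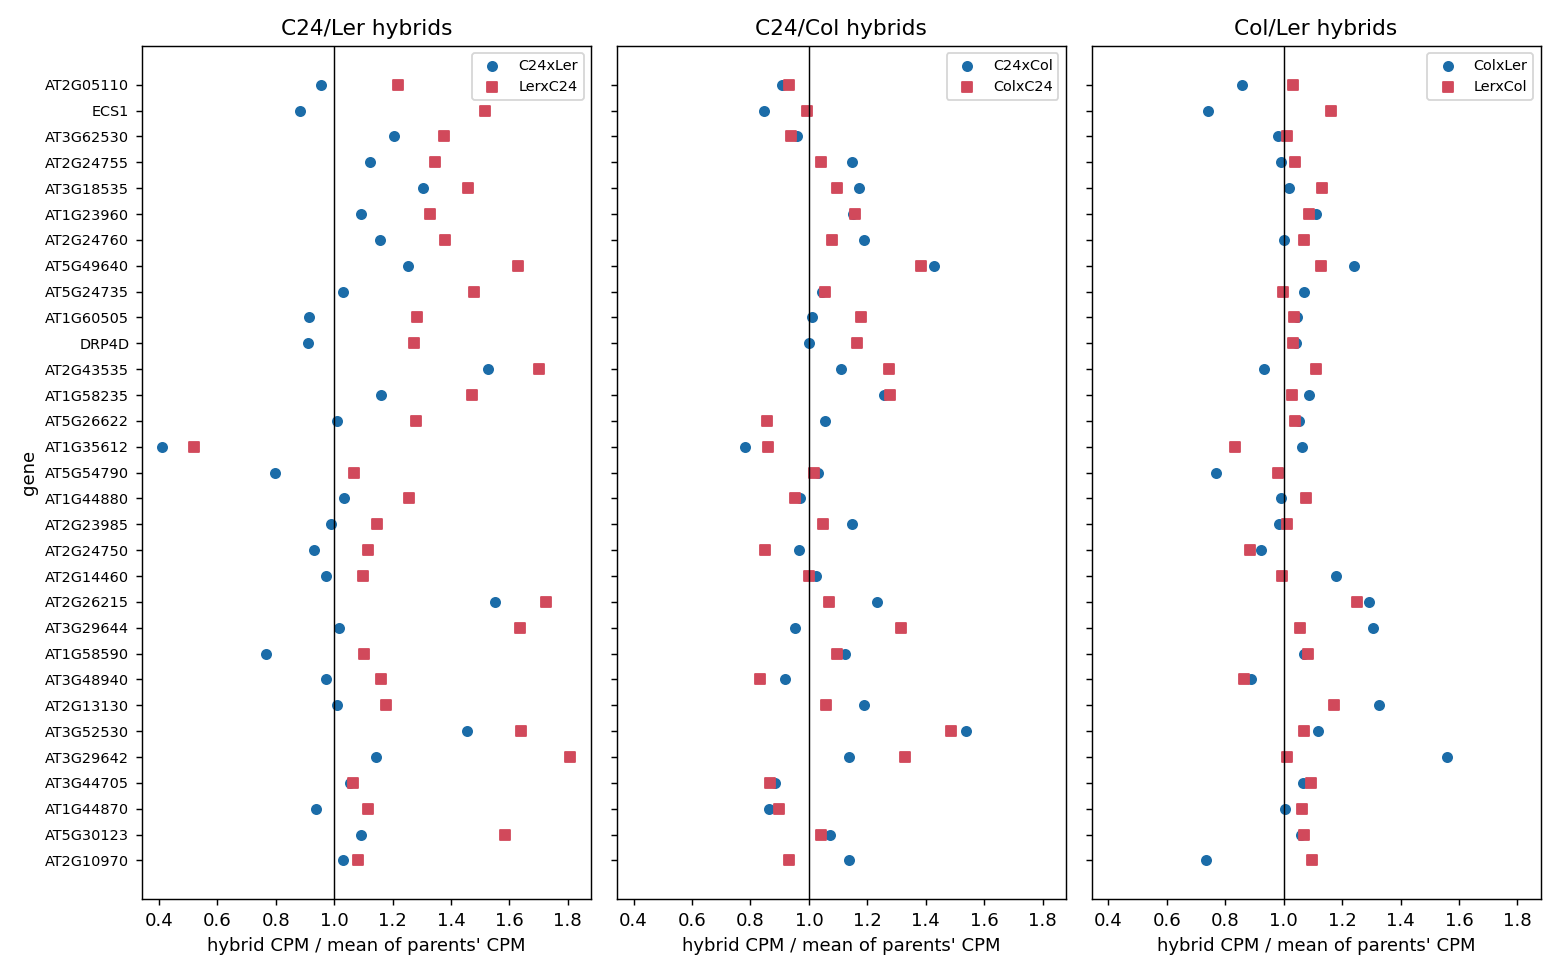
CPM of each hybrid cross divided by the mean CPM of its parents, for the 31 genes, letters A and B, with 1 point per cross (mean of 2 libraries) and a line at 1. C24xLer has a median of 1.03 and LerxC24 of 1.29, with LerxC24 to the right of C24xLer for every gene, while the crosses of the other families have medians of 1.04 to 1.06.

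The position above the mean in the C24/Ler hybrids varied between libraries. The median ratio was 0.978 in C24xLer A, 1.13 in C24xLer B, 1.14 in LerxC24 A and 1.40 in LerxC24 B. Leaving out LerxC24 B, which stood apart in the genes near silent in Ler alone, gave a family median of 1.11. In the C24/Col hybrids the 4 libraries had medians of 1.02 to 1.09, and in the Col/Ler hybrids 1.02 to 1.07, each against the parents' mean over both letters. With parents and hybrids of 1 letter alone, the C24/Col median was 1.18 for A and 0.951 for B, and the Col/Ler median 1.10 and 0.997. For comparison, the 54 genes near silent in Ler alone had a median ratio of 0.856 in the C24/Ler hybrids and 1.06 in the Col/Ler hybrids, and the 15 near silent in Col alone had 0.999 in the C24/Col and 1.03 in the Col/Ler hybrids. These differences between sets were not tested.

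In the libraries that the rule did not use, the C24/Ler hybrids could be tested against the parents. The median ratio to the parents' mean CPM was 1.17 (0.220 to 1.86), with 16 genes between 0.8 and 1.25, 12 above and 3 below, against 86.7% of all genes in that range. Without Ler D and Ler E the median was 1.11 (0.741 to 3.03), with 21, 9 and 1 genes. In edgeR's quasi-likelihood test against the mean of the parents' CPM, 0 of the 31 genes were called, where 0.0067% of all genes were called higher and 0.01% lower. At an unadjusted p below 0.05, 2 of the 31 were higher and 1 lower, and the share of all genes at that level was not counted. The log2 difference was above 0 for 23 of the 31, with a median of 0.19 against -0.018 over all genes. The fit without Ler D and Ler E also called 0 of the 31.

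Against Ler itself, all 31 genes had a lower estimate in these C24/Ler hybrids, with a median log2 difference of -0.74, and 4 were called lower and 0 higher, where 0.435% of all genes were lower and 0.288% higher. The 4 were AT1G23960 (-0.84 ± 0.11 SE), AT2G24750 (-1.19 ± 0.17), AT2G24755 (-0.86 ± 0.13) and AT5G24735 (-1.23 ± 0.20), with edgeR adjusted p of 0.0048 to 0.018. With the letter as a block AT2G24755 was not called (-0.84, adjusted p 0.069). AT1G23960 had 26.3, 30.1, 29.9 and 28.2 CPM in the hybrids, all below the lowest Ler value of 44.4 CPM. The 4 calls depended on the libraries: 1 gene was called without LerxC24 U1 and 10 without Ler D and Ler E. At an unadjusted p below 0.05, 18 of the 31 were lower, and the share of all genes at that level was not counted. Every hybrid library lay below every Ler library for 9 of the 31 genes (3.48% of all genes) and above every C24 library for 29 of the 31 (4.39%).

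Hybrids that share one parent were compared next, because the rule used no hybrid library. In the C24/Ler hybrids 27 of the 31 genes were lower than in the Col/Ler hybrids and 0 were higher, by edgeR's quasi-likelihood test over 29777 genes, where 3.63% of all genes were lower and 2.05% higher. The median log2 difference of the 31 was -0.86, against 0.006 over all genes. In the C24/Col hybrids 26 of the 31 were lower than in the Col/Ler hybrids and 0 were higher, where 3.9% of all genes were lower and 3.9% higher, with a median of -0.81. These comparisons share the 4 Col/Ler hybrid libraries. All 31 estimates were below 0 in both, 24 genes were called in both, 3 in the first alone and 2 in the second alone. Every C24/Ler hybrid library lay below every Col/Ler hybrid library for 25 of the 31 genes (6.92% of all genes), and every C24/Col hybrid library did for 27 (8.32%). The 27 edgeR calls in the C24/Ler hybrids became 17 without C24xLer A, the lowest over the single libraries left out, and 26 without LerxC24 B.

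AT3G62530 showed the typical case. The C24/Ler hybrids had 91.0, 79.8, 96.8 and 98.4 CPM, the C24/Col hybrids 91.2, 83.0, 90.3 and 79.7 CPM, and the Col/Ler hybrids 145.4, 144.2, 155.9 and 143.5 CPM. Both C24 families lay below all Col/Ler hybrids (-0.69 ± 0.07 SE and -0.77 ± 0.07, edgeR adjusted p 3.7e-05 and 1.5e-05). AT1G23960 had 18.9, 24.4, 22.4 and 30.4 CPM, then 20.2, 24.2, 19.6 and 24.98 CPM, then 39.3, 45.8, 41.3 and 42.0 CPM in the same 3 families. It was again lower in both C24 families (-0.82 ± 0.13 and -0.92 ± 0.13, edgeR adjusted p 0.00197 and 7.9e-04).

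The clearest departures from a similar lowering in both C24 families were genes on which Ler and Col differ. AT1G35612 had the largest difference between C24/Ler and Col/Ler hybrids (-5.15 ± 0.35, edgeR adjusted p 2.9e-06), with at most 0.651 CPM in any library against 16.8, 18.2, 14.3 and 13 CPM. Its C24/Col hybrids, at 11.8 to 13.7 CPM, were not called different from the Col/Ler hybrids (-0.27 ± 0.27, edgeR adjusted p 0.66). ECS1 had 21.5, 11.6, 34.7 and 22.1 CPM in the C24/Ler hybrids, 135.7, 94.3, 183.0 and 87.1 CPM in the C24/Col hybrids and 131.2, 97.3, 203.1 and 154.9 CPM in the Col/Ler hybrids. The first family lay far below the other families, which overlapped (-2.72 ± 0.34, edgeR adjusted p 4.3e-04, and -0.20 ± 0.31, edgeR adjusted p 0.81). AT5G24735 was lower in both families, by -1.55 ± 0.08 and -0.41 ± 0.07.

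AT3G18535 and AT3G52530, the genes higher in Ler than in Col, ran the other way. AT3G18535 had 34.1, 39.6, 32.3 and 50.03 CPM in the C24/Ler hybrids, 13.4, 12.1, 11.9 and 11.98 CPM in the C24/Col hybrids and 45.1, 33.1, 44.0 and 42.7 CPM in the Col/Ler hybrids. It was not called in the C24/Ler comparison (-0.08 ± 0.16, edgeR adjusted p 0.91) and was lower in the C24/Col comparison (-1.74 ± 0.17, edgeR adjusted p 4.8e-05). AT3G52530 gave -0.00 ± 0.11 (edgeR adjusted p 1.0) and -0.98 ± 0.11 (edgeR adjusted p 1.7e-04). For both genes the C24/Ler libraries overlapped the Col/Ler libraries and the C24/Col libraries lay below them.

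The remaining genes without a call were AT2G43535, AT2G10970 and AT2G24750. The knottin gene AT2G43535 had estimates of -0.25 ± 0.17 and -0.57 ± 0.17, neither called, and the libraries of all 3 families overlapped between 11.8 and 25.5 CPM. With the letter as a block the C24/Col estimate of AT2G43535 was called (adjusted p 0.0063). AT2G10970, at 0.425 to 1.60 CPM in the hybrids, had -0.78 ± 0.40 and -0.73 ± 0.39, neither called, on counts of 32 to 138 per library. With the letter as a block both were called, with adjusted p of 8.0e-04 and 0.0011. AT2G24750 was lower in the C24/Ler hybrids (-1.23 ± 0.28, edgeR adjusted p 0.0246) and not called in the C24/Col hybrids (-0.51 ± 0.27, edgeR adjusted p 0.34).

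**Figure D4:**
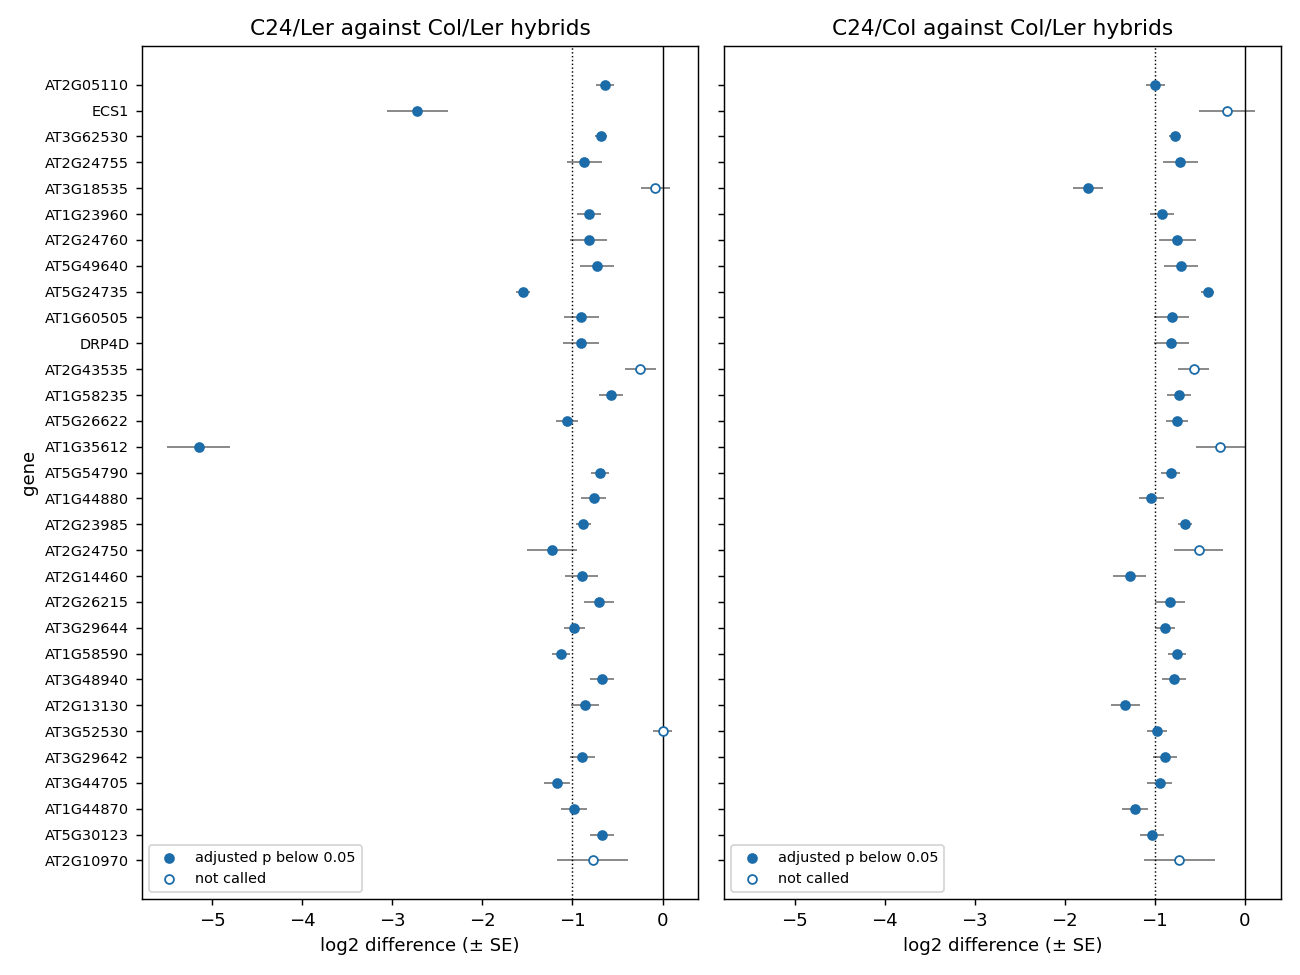
Log2 difference (point) with its standard error (bar) of the 31 genes in the C24/Ler hybrids (left) and C24/Col hybrids (right) against the Col/Ler hybrids, letters A and B, 4 libraries per family. Filled points passed an adjusted p below 0.05, the solid line marks 0 and the dotted line marks -1. Most genes lie close to -1 in both panels, ECS1 and AT1G35612 lie far left in the left panel only, and AT3G18535 in the right panel only.

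The direction of the cross made no called difference. In each of the 3 reciprocal comparisons edgeR called 0 of the 31 genes and 0 of all 29777 genes, and DESeq2 called 0 of the 31. In letters A and B all 31 genes had a lower estimate in C24xLer than in LerxC24, with a median log2 difference of -0.28. Of these, 7 genes were at an unadjusted p below 0.05. For this and the other comparisons of direction, the share of all genes at that level was not counted. Both C24xLer libraries lay below both LerxC24 libraries for 16 of the 31 genes, against 13.6% of all genes. Without LerxC24 B the median was -0.17. In the libraries not lettered A, B or C the same comparison gave 14 genes lower and 17 higher, with a median of 0.05. There the C24xLer libraries are D and E. The LerxC24 columns are also headed D and E, while the sample titles of LerxC24 have F and G and no D or E. Which letters hold is not stated. By the titles, the direction of the cross and the letter cannot be told apart, and by the column headers they can. C24xCol against ColxC24 had a median of 0.03, with 12 genes lower, 19 higher and 1 at an unadjusted p below 0.05, and ColxLer against LerxCol had 0.01, with 15 lower, 16 higher and 2 at that level.

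**Figure D5:**
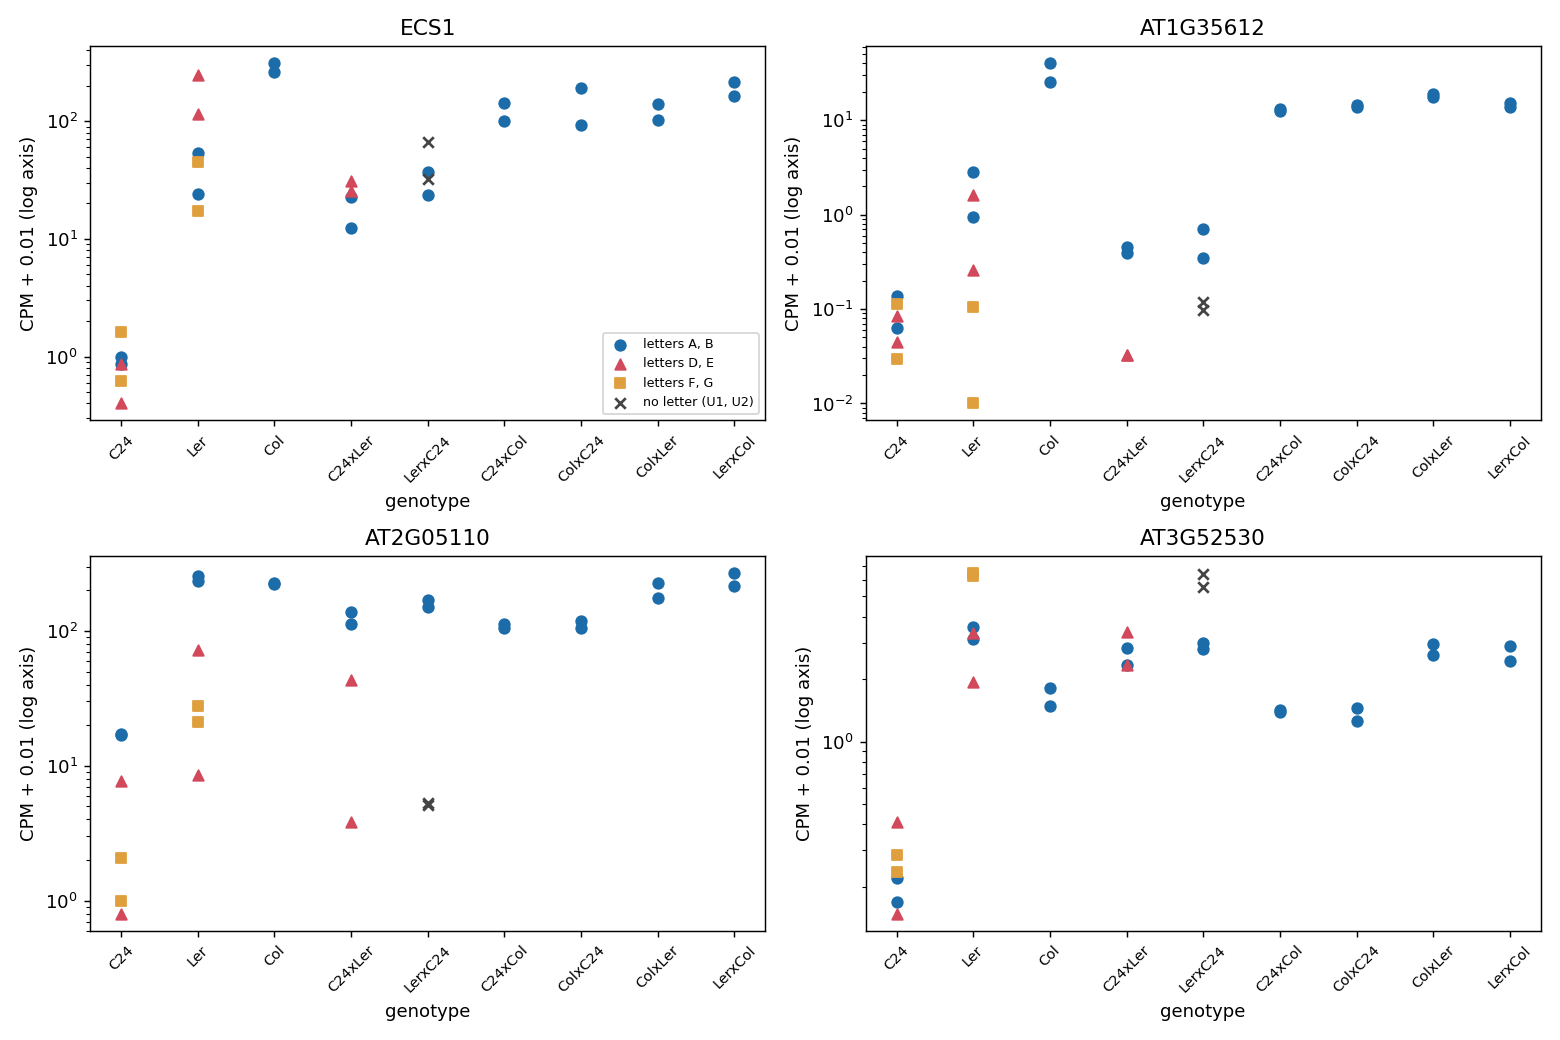
CPM plus 0.01, on a log axis, of ECS1, AT1G35612, AT2G05110 and AT3G52530 in the 30 libraries not lettered C, 1 point per library, from a scaling over all 30 libraries. In letters A and B, ECS1 and AT1G35612 show 3 separate levels in C24, Ler and Col, AT2G05110 in C24, Ler and their hybrids is lower in the libraries that the rule did not use, and the AT3G52530 hybrids lie near the parent that expresses it.

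A list of 25 genes for DNA methylation, its maintenance and removal, small RNA production and histone-based repression was compared between C24 and Ler. The libraries were those that the rule did not use. ROS1, DME, DML2 and DML3 remove DNA methylation, so values over the list mix genes of opposed function. In edgeR's test 0 were higher and 2 were lower, where 3.82% and 4.62% of all genes were. These counts are near the shares over all genes. The 2 were RDR2, the RNA-dependent RNA polymerase that makes the double strand for small RNAs (-0.64 ± 0.10 SE, edgeR adjusted p 0.0029), and NRPE1, the largest subunit of RNA polymerase V (-0.58 ± 0.15, edgeR adjusted p 0.0385). The list's median log2 difference was -0.14, against -0.006 over all genes. At an unadjusted p below 0.05 in the same edgeR test, DRM2, NRPD2, DCL3, DML2, DML3 and MOM1 were also lower and RDM1 was higher. The share of all genes at that level was not counted, so these genes show nothing about the list as a whole. Ler D and Ler E were among the libraries of this test. Counts of genes whose sequence in C24 differs from the Columbia reference could be too low in C24, and whether that applies to any of the 31 genes was not tested.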

How the data were processed

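Per the labels' protocols, mRNA libraries were made by a service provider from total RNA. The deposited values are the authors' raw counts of reads per locus. The genome build was TAIR10 and FastQC was among the tools, per the submitters' processing notes. For the aligner, the counter and the use of strand, the sources used here name nothing. All 31 genes and 32565 of 33321 loci matched NCBI's TAIR10.1 annotation, used for names, gene types and gene order only.

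CPM were computed with TMM scaling, and tests were edgeR quasi-likelihood fits (edgeR 4.0.16, R 4.3.3) after a filter on low counts (minimum count 10), which all 31 genes passed. DESeq2 1.42.0 was an alternative. The test against the parents' mean took their ratio as known. The code was tested on simulated data. The 31 genes and the gene lists were chosen with earlier results of these data known.

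Genes were named by a rule that gave 24 of the 31: the 12 with the highest Ler and Col CPM, the 3 highest and 3 lowest ratios per C24 family, the 3 smallest C24 and Ler differences, those at the limit, with a symbol, or next to another of the 31. The other 7, and the neighbouring genes, were named after their values were seen. Same-letter libraries deviated together (correlations of 0.212 to 0.557 in letters A and B over 72 pairs, 0.245 to 0.478 otherwise over 8 pairs), so the letter was treated as a pairing that the data show and the labels do not explain. The main fits had no such block. Within a genotype the A and B deviations mirror each other, so each A and B correlation appears for both letters among the 72 pairs. Counting error only is covered by the floor of 3 counts.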

Additional observations from a re-analysis of the deposited data

Results flagged for a closer look

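Of 123 groups of 4 to 10 libraries examined, 1 gene in 1 genotype each, 2 held a library far from the others, where chance flags about 1 group in 20. AT5G24735, a non-coding RNA, reached 9.883 CPM in C24xLer E, while the other 3 of the 4 C24xLer libraries lay between 6.81 and 7.26 CPM. AT1G58235, an uncharacterized gene, was at 12.01 CPM in LerxC24 A, while the other 3 of the 4 LerxC24 libraries lay between 17.9 and 18.9 CPM. Both values come from a scaling over the 30 libraries not lettered C.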

How the results depend on the processing

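The set held 31 genes without TMM and with DESeq2 size factors, 31 with letter A alone (24 shared with the main set) and 32 with letter B alone (30 shared). The median hybrid ratio was 1.18 (letter A alone) and 0.951 (letter B alone) for C24/Col, and 1.10 and 0.997 for Col/Ler. Over fits leaving out 1 library each, the genes lower in C24 than in Ler numbered 29 to 30, those lower in C24/Ler hybrids than in Ler 1 to 6, those lower in C24/Ler than in Col/Ler hybrids 17 to 27, and those lower in C24/Col hybrids 21 to 26. The 4 genes lower in C24/Ler hybrids than in Ler became 9 with DESeq2, 0 with the letter C libraries and 10 when Ler D and E were left out. With the letter as a replicate block the counts were 30, 3, 28 and 28, and the 4 calls it changed are given beside those genes. C24xLer against LerxC24 had a median of 0.055 in the libraries not lettered A, B or C, an alternative chosen after seeing the data, reversed from -0.28, and the cause was not tested. Over all genes, C24 against Ler gave 1139 higher and 1378 lower. These became 3052 and 3015 with the replicate block, 204 and 278 with letter C, 2153 and 2089 with neither Ler D nor E, and 1835 higher with DESeq2. C24/Ler hybrids against Ler gave 86 and 130, which became 329 and 591 with DESeq2, 37 and 13 with letter C, 444 and 360 with neither Ler D nor E, and 63 lower with the block. C24/Ler against Col/Ler hybrids gave 611 and 1081, with the block 1322 and 1839, and C24/Col against Col/Ler hybrids 1162 and 1160, with the block 2467 and 2357. The 17 neighbouring genes lower in C24 became 7 with the letter C libraries. No filter on low counts left each count of the 31 genes as it was. Leaving out 1 library at a time gave, as higher and lower counts over all genes, 638 to 1459 and 896 to 1602 for C24 against Ler, 60 to 158 and 18 to 181 for the hybrids against Ler, 387 to 664 and 720 to 1156 for C24/Ler and 680 to 1234 and 683 to 1223 for C24/Col against Col/Ler hybrids. In the reciprocal comparisons, where edgeR called 0 of all genes, DESeq2 called 5 higher and 6 lower, 1 and 18, and 4 and 0 in the order of the text. DESeq2 was not run for the test against the parents' mean, which is no linear contrast. At 0.05 CPM, 1 of these libraries holds about 4 counts, which limits what can be said of the lowest C24 values.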

Other observations

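Genes next to the 31 were often lower in C24 as well. The nearest annotated genes on either side that are not among the 31 and do not overlap them number 53. Of these, 45 could be tested between C24 and Ler in the libraries that the rule did not use. In edgeR's quasi-likelihood test 17 of the 45 were lower in C24 and 1 was higher, where 4.62% and 3.82% of all genes were. Their median log2 difference was -0.38, against -0.006 over all genes. This comparison was chosen after the data were seen. The 17 lay beside at least 13 of the 31 genes, on both sides for at least 4 of them. Each was assigned to 1 of the 31 even where several share it. Among the 17, AT2G24761, AT1G60520, AT3G44710, AT2G10965, AT2G13128 and AT1G44860 were low in Ler too, with means of 0.143 to 0.905 CPM. Leaving out 1 library at a time gave 13 to 17 lower genes, leaving out Ler D and Ler E gave 17, the replicate block 21, DESeq2 19, and adding the letter C libraries 7.

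Both neighbours of AT1G23960 were lower in C24. AT1G23950 had a mean of 8.66 CPM in C24 and 40.0 CPM in Ler (-2.21 ± 0.15 SE, edgeR adjusted p 5.6e-06), and AT1G23965 had 0.570 and 2.64 CPM (-2.23 ± 0.21, edgeR adjusted p 6.3e-05). AT5G54780, beside AT5G54790, had 13.6 and 38.7 CPM (-1.51 ± 0.13, edgeR adjusted p 3.0e-05). AT2G43530, beside the knottin gene AT2G43535, had 15.6 and 58.4 CPM (-1.90 ± 0.24, edgeR adjusted p 5.8e-04). The gene higher in C24 was AT2G13140, beside AT2G13130 (8.07 ± 1.71, edgeR adjusted p 0.0142). Its SE was the largest among the neighbouring genes tested, so the size of its difference is uncertain, and its levels are not given here. Sequence differences from the reference and counting across gene borders were not tested as parts of this pattern.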
